A study of Homo sapiens with 7 samples.

Results

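The IFIT family comprises the interferon-induced proteins with tetratricopeptide repeats, and 4 of its genes, IFIT1, IFIT2, IFIT3 and IFIT5, are described here among the 14535 genes of the count table. They were selected by name, with the difference between the 2 groups of this study already known, so their levels and fold changes are a description of the libraries and carry no p-value. All 4 were found in the table under these symbols.

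The libraries come from A549, an established human lung adenocarcinoma line of epithelial origin. Cells had been exposed for 24 h either to 100 nM doxorubicin, a DNA-damaging topoisomerase poison (libraries 1 to 3), or to cyclic stretch of 15% elongation at 15 cycles per min (libraries 4 to 7). At day 6 both groups were stained for β-galactosidase activity, a senescence marker, and sorted on it. The sample titles carry the word senescent for the stretch libraries and not for the doxorubicin libraries. The sort is shared by every library, and no unexposed A549 cells were analysed here, so each value compares one exposure with the other and not with resting cells. The labels do not say whether the libraries of a group came from separate cultures, so the spread between them may be technical. These are bulk libraries, in which fewer expressing cells and less RNA per cell cannot be told apart.

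IFIT proteins are cytoplasmic effectors of the interferon response and bind foreign RNA through their repeats. IFIT1 binds capped mRNA that lacks ribose methylation next to the cap and keeps it from being translated, IFIT3 binds and stabilises IFIT1, and IFIT2 joins both in a complex and is linked to apoptosis. IFIT5 stands apart in acting alone and binds RNA with an exposed triphosphate end. The genes are switched on by ISGF3, a transcription factor complex that holds STAT2 and IRF9 and forms below the type I and type III interferon receptors, through the interferon-stimulated response element (ISRE). IRF3, activated by nucleic acid sensors, can also drive them without interferon.

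The 4 genes lie on the plus strand of chromosome 10 in a cluster of 137.31 kb (GRCh38, GENCODE release 29; 89283694 to 89421001). IFIT2 (ENSG00000119922.9) runs from 89283694 to 89309276, IFIT3 (ENSG00000119917.13) from 89327894 to 89340971, IFIT1 (ENSG00000185745.9) from 89392546 to 89406486 and IFIT5 (ENSG00000152778.8) from 89414586 to 89421001. The pseudogene IFIT6P and the paralogue IFIT1B lie between IFIT3 and IFIT1. LIPA, on the minus strand, spans IFIT1, IFIT2 and IFIT3, and the noncoding gene AL353751.1 overlaps IFIT2 on the same strand. Whether strand was used in counting is not given in the sources used here, so reads of such overlapping genes may not have been separated, nor those of near-identical stretches of family members.

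Promoter sequence is shown because the members with a window at hand each held matches to the element that ISGF3 binds. No window was at hand for IFIT2. The part of these matches in the difference between the groups was not tested. The windows searched were the 250 bases before each RefSeq start (GRCh38.p14), which were matched for IFIT1, IFIT3 (with 2 starts) and IFIT5. The motif was GAAANNGAAA, the core of the ISRE, on both strands with overlaps allowed. Each of these windows held 2 matches, all on the minus strand, so that on the plus strand they read TTTCNNTTTC. Sequences are plus strand, 5′ to 3′, with the matches in capitals: for IFIT1 and the first start of IFIT3 the stretch that ends just before the annotated gene, and for the others 20 bases around each match.
IFIT1, chr10:89392373-89392545: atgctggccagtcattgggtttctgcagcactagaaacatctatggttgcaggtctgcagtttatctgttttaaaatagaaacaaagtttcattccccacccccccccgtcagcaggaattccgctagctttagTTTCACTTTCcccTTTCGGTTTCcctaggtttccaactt
IFIT3, chr10:89327747-89327893: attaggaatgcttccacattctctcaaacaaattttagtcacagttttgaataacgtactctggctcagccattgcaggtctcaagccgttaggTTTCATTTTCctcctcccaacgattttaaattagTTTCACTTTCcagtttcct
IFIT3, second start, chr10:89332430-89332449: ttctgTTTCAGTTTCccctc
IFIT3, second start, chr10:89332473-89332492: atcagTTTCACTTTCctttc
IFIT5, chr10:89414518-89414537: ttaagTTTCGGTTTCtgaag
IFIT5, chr10:89414544-89414563: tttagTTTCGATTTCttaag

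In IFIT1 the matches lay 116 to 107 and 103 to 94 bases before the RefSeq start, with 3 bases between them. In IFIT3 they lay 156 to 147 and 122 to 113 bases before the first start, and 94 to 85 and 51 to 42 bases before the second. The bases printed around the last of these reach into an exon of the IFIT3 transcript IFIT3-201 on the same strand (89332484 to 89332627). In IFIT5 the matches lay 45 to 36 and 19 to 10 bases before the RefSeq start. They were within or at the edge of an exon of the LIPA transcript LIPA-203 on the other strand (89414407 to 89414557). These distances hold for the RefSeq starts, which differ from the GENCODE gene starts given above. By the GENCODE starts the IFIT5 matches were not the closest. The match TTTCACTTTC occurred in IFIT1 and at both starts of IFIT3, and TTTCGGTTTC in IFIT1 and IFIT5. Of all 35116 RefSeq promoter windows of this length, 1061 (3.02%) held at least 1 match and 79 (0.225%) at least 2. A match is a run of letters and does not show that a factor was bound.

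Before the values, the libraries themselves differed. Totals were 2611766 to 4644650 counts after doxorubicin and 5636494 to 7419798 after stretch. A single gene, EIF4A2, took 16.1%, 30.6% and 10.8% of doxorubicin libraries 1, 2 and 3 and 1.67% to 2.87% of the stretch libraries. Rows without a count made up 10.9%, 21.4% and 5.10% of the doxorubicin libraries and 4.17% to 4.88% of the stretch libraries. Levels below are CPM, the counts relative to the library total, after scaling by trimmed mean of M-values (TMM), whose factors were 0.730, 0.443 and 1.14 after doxorubicin and 1.25 to 1.33 after stretch. The scaling therefore raises doxorubicin libraries 1 and 2 relative to the rest, and results are also given with doxorubicin library 3 alone and with library totals. CPM is not corrected for length or primer efficiency in this amplicon assay, so levels are compared between libraries and not between genes. A count of 0 would allow up to 3 counts, which is 2.59 CPM in the shallowest library, doxorubicin 2, and 0.321 CPM in stretch 5, and every IFIT value was above the limit of its library. The IFIT values rested on 15 to 239 counts per gene and library.

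IFIT1, the sensor of unmethylated caps, reached 94.9, 16.4 and 39.9 CPM in doxorubicin libraries 1, 2 and 3 and 2.54, 5.78, 3.78 and 5.16 CPM in stretch libraries 4 to 7. Doxorubicin library 1 was the highest of all and library 2 the lowest of its group, and the groups did not overlap. The means were 50.4 ± 40.3 CPM (SD, n = 3) and 4.32 ± 1.45 CPM (SD, n = 4), an 11.7-fold difference. On the log2 scale, as stretch minus doxorubicin, this was -3.55 with a standard error of 0.54. The IFIT1 difference was the widest of the 4 and also the least even: the doxorubicin libraries spanned 5.78-fold, and the lowest of them rested on 19 counts. Without doxorubicin library 1 the log2 fold change was -2.73, a fold more than 1.5 times smaller.

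IFIT2, the partner linked to apoptosis, stood at 54.0, 26.8 and 19.7 CPM after doxorubicin and at 2.67, 5.35, 4.11 and 5.92 CPM after stretch. Library 1 was again the highest, library 3 was here the lowest of its group, and the groups did not overlap. The means were 33.5 ± 18.1 CPM (SD, n = 3) and 4.51 ± 1.44 CPM (SD, n = 4), a 7.37-fold difference and a log2 fold change of -2.88 (SE 0.43).

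IFIT3, the stabiliser of IFIT1, stood at 57.6, 51.0 and 36.9 CPM after doxorubicin and at 6.27, 6.63, 8.0 and 6.35 CPM after stretch. Both groups were tight, with a 1.56-fold span after doxorubicin and a 1.28-fold span after stretch. The gap between them was the widest of the family, since the lowest doxorubicin library was 4.61 times the highest stretch library. The means were 48.5 ± 10.6 CPM (SD, n = 3) and 6.81 ± 0.81 CPM (SD, n = 4), a 7.07-fold difference and a log2 fold change of -2.82 with the smallest standard error of the 4, 0.30.

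IFIT5, the member that acts alone on triphosphate RNA, stood at 18.7, 13.0 and 16.6 CPM after doxorubicin and at 4.27, 5.56, 4.11 and 4.52 CPM after stretch. Its doxorubicin libraries were the most alike of the family, with a 1.44-fold span, and the groups did not overlap. The means were 16.1 ± 2.89 CPM (SD, n = 3) and 4.62 ± 0.65 CPM (SD, n = 4), a 3.51-fold difference and a log2 fold change of -1.81 (SE 0.32), the smallest of the 4.

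**Figure D1:**
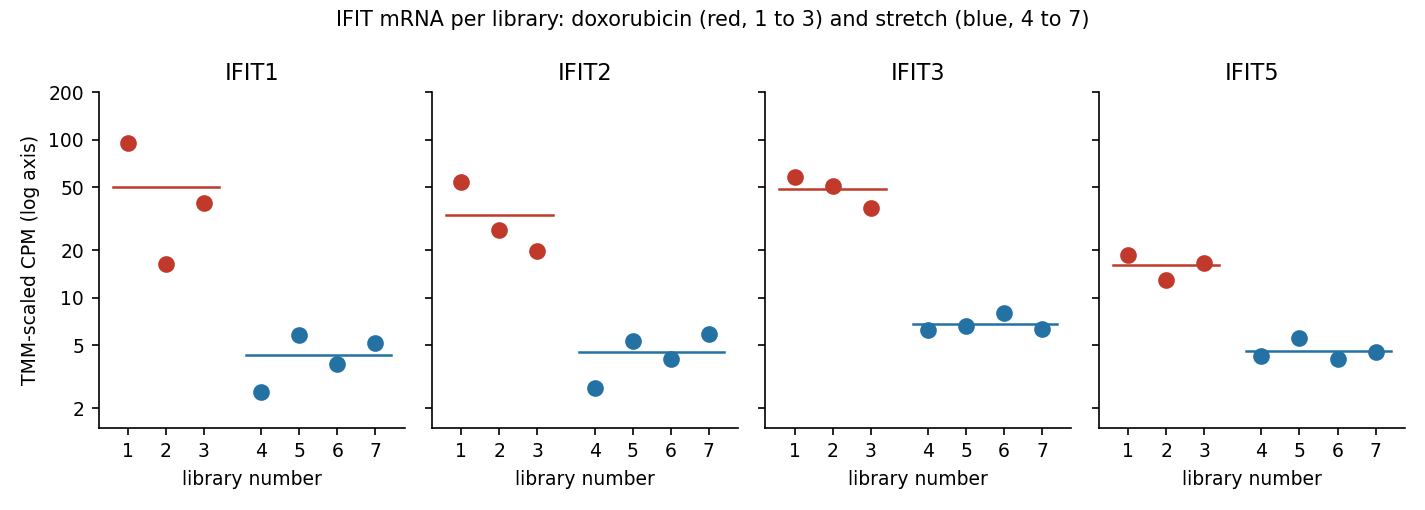
TMM-scaled CPM (log axis) of each IFIT gene in doxorubicin libraries 1 to 3 (red) and stretch libraries 4 to 7 (blue), 1 point per library, with the group mean as a line. In each panel every red point lies above every blue point, and IFIT1 has the widest spread among the red points, from 16.4 to 94.9 CPM.

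Added together, the 4 genes took 107 to 225 CPM in the doxorubicin libraries (148 ± 66.5, SD, n = 3) and 15.8 to 23.3 CPM in the stretch libraries (20.3 ± 3.30, SD, n = 4). The quasi-likelihood test of edgeR, at an adjusted p of 0.05, called all 4, where 221 of 11230 tested genes (1.97%) passed with a higher level in doxorubicin, and 261 (2.32%) in either direction. In all 4 every doxorubicin library lay above every stretch library, as in 1110 of the tested genes (9.88%). Since the members were selected on this contrast, nothing is read from these counts. Ordered by log2 fold change from the doxorubicin end, IFIT1 was 32nd, IFIT2 65th, IFIT3 69th and IFIT5 325th of the 11230.

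The make-up of the family within a library was compared as each gene's share of the summed counts of the 4, which no library scaling can move. The sums were 567, 124 and 598 counts in the doxorubicin libraries and 118, 218, 185 and 204 in the stretch libraries. Intervals are exact 95% binomial intervals (Clopper-Pearson) and cover counting error only, since amplicon reads without molecular identifiers are not independent molecules.

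IFIT5 held 8.29%, 12.1% and 14.7% of the family's counts after doxorubicin and 27.1%, 23.9%, 20.5% and 20.6% after stretch. All stretch libraries lay above all doxorubicin libraries, with group means of 23.0% ± 3.14 (SD, n = 4) and 11.7% ± 3.23 (SD, n = 3), 11.3 percentage points apart. With each library left out in turn the difference ran from 9.62 to 12.8 points. Its direction could not turn, since the groups did not overlap. The genes were selected on this contrast, so their shares are a description. The nearest pair were doxorubicin 3 (12.0% to 17.8%) and stretch 6 (15.0% to 27.1%), whose intervals overlapped.

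The IFIT1 share was 42.2%, 15.3% and 35.3% after doxorubicin and 16.1%, 24.8%, 18.9% and 23.5% after stretch, so the groups overlapped because of doxorubicin library 2. In that library IFIT1 was not the leading count of the family as in libraries 1 and 3. IFIT3 took 47.6% there, against 25.6% and 32.6% in the other doxorubicin libraries and 28.4% to 40.0% after stretch. The IFIT2 share ran from 17.4% to 25.0% after doxorubicin and from 16.9% to 27.0% after stretch. IFIT2 and IFIT3 shares overlapped between the groups, with means 0.28 and 0.96 points lower after stretch. Leaving out 1 library turned both directions, from -2.65 to 1.35 points for IFIT2 and from -5.80 to 5.21 points for IFIT3.

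**Figure D2:**
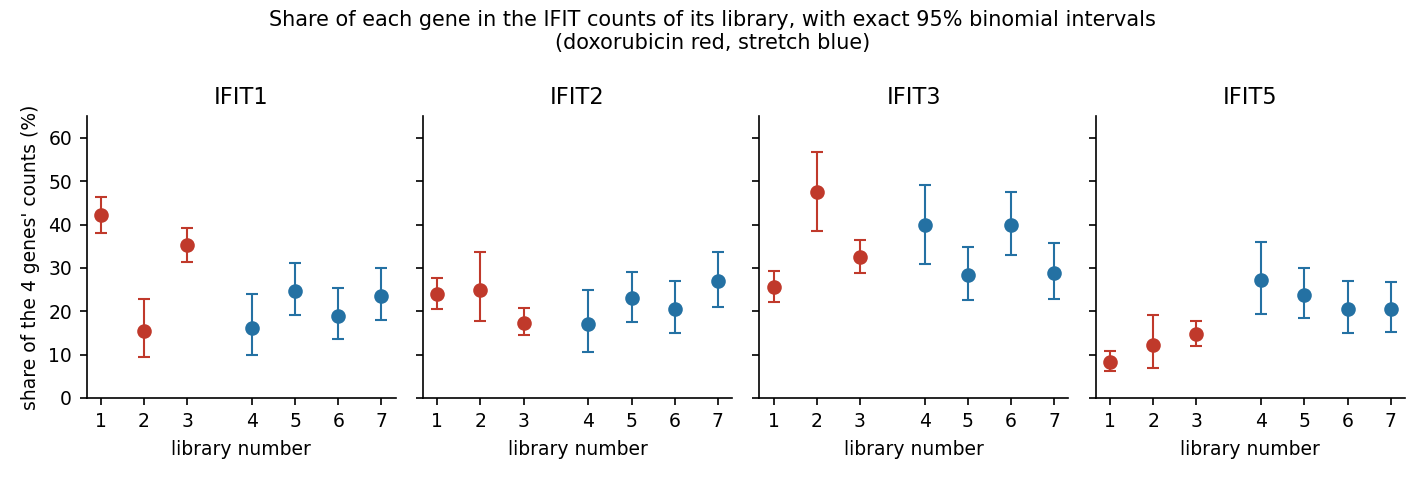
Share of each IFIT gene in the summed IFIT counts of its library (percent), with exact 95% binomial intervals as bars, doxorubicin red and stretch blue. IFIT5 is the gene whose groups do not overlap, at 8.29% to 14.7% after doxorubicin and 20.5% to 27.1% after stretch.

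The doxorubicin libraries were not equally far from stretch. Relative to the stretch mean, IFIT1 was 22-fold, 3.81-fold and 9.24-fold higher in doxorubicin libraries 1, 2 and 3. The ratios were 12.0, 5.94 and 4.36 for IFIT2, 8.45, 7.49 and 5.41 for IFIT3, and 4.04, 2.81 and 3.60 for IFIT5. Library 1 was the highest for each gene with TMM scaling. On library totals the IFIT5 ratios were 2.31, 0.973 and 3.21, with library 3 the highest. The IFIT3 ratios of libraries 1 and 3 were then both 4.82. With doxorubicin library 3 as the sole doxorubicin library, where the lone library is assumed to vary like the stretch group, the log2 fold changes were -3.18 for IFIT1, -2.10 for IFIT2, -2.42 for IFIT3 and -1.83 for IFIT5, and all 4 were past the threshold, as were 99 of all genes (0.802%). That of IFIT2 moved by over 1.5-fold, and that of IFIT5 hardly moved.

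The scaling set the size of the difference and, for IFIT1 and IFIT5, whether the groups overlapped. With library totals alone the log2 fold changes were -2.88, -2.09, -2.03 and -1.12 for IFIT1, IFIT2, IFIT3 and IFIT5, and no member was past the threshold, as 13 of all genes (0.116%) were by edgeR. Totals moved the median of all tested genes to 0.71, and relative to that median the 4 values were -3.59, -2.80, -2.74 and -1.83. On library totals the lowest doxorubicin and highest stretch values were 7.27 and 7.28 CPM for IFIT1 and 5.74 and 7.01 CPM for IFIT5, so these overlapped. They were 11.9 and 7.59 CPM for IFIT2 and 22.6 and 9.99 CPM for IFIT3, which did not, as was true of 2.7% of tested genes. In each case the lowest doxorubicin library was number 2, in which EIF4A2 took 30.6% of the total.

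**Figure D3:**
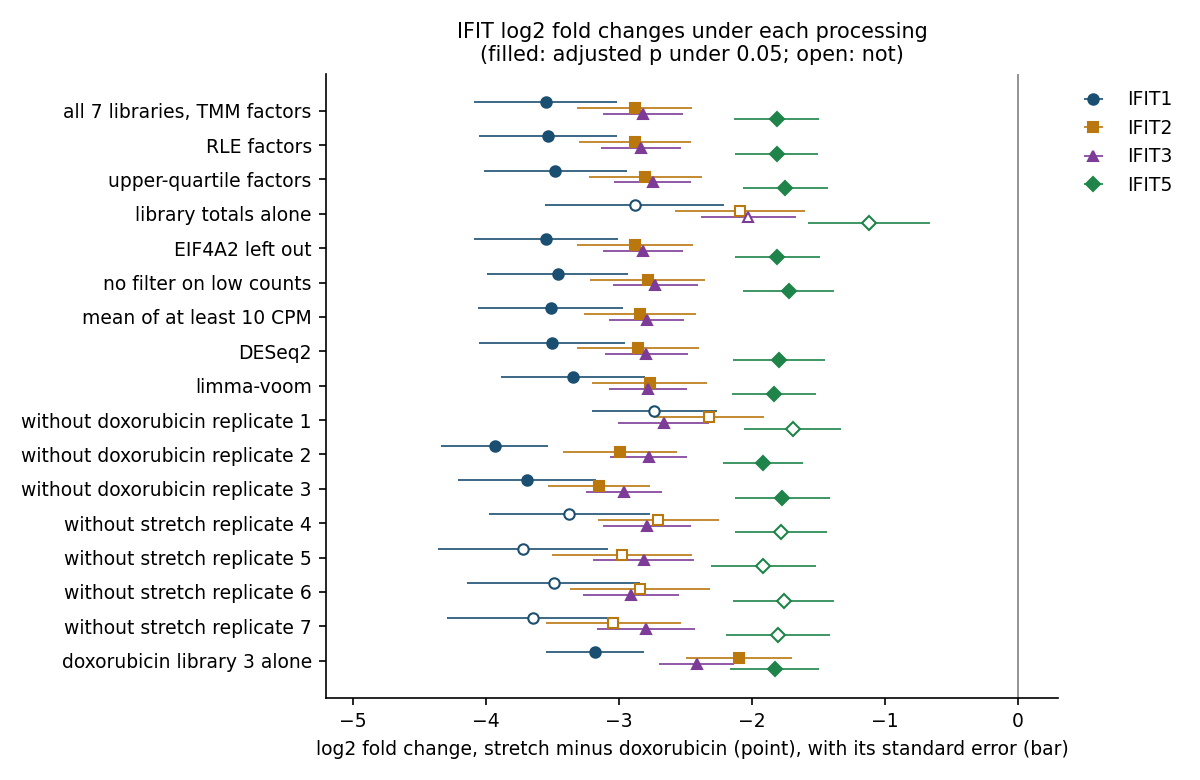
Log2 fold change (stretch minus doxorubicin) of each IFIT gene under the processing named at left, with its standard error as a bar, filled where the adjusted p was under 0.05 and open where it was not. All points lie left of 0, from -3.93 to -1.12, and IFIT3 is open for library totals alone and filled elsewhere. The genes were selected on this contrast, so the filling describes the processing and is no test of the genes.

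Of the 16 alternatives, library totals alone took IFIT3 below the threshold, and IFIT1, IFIT2 and IFIT5 also fell below it when doxorubicin library 1 or any 1 of the stretch libraries was left out. In those 5 settings the number of all genes past the threshold was 12 to 40, against 261 with all libraries. Without 1 of the stretch libraries the log2 fold changes stayed near those with all libraries, from -3.72 to -3.37 for IFIT1, -3.04 to -2.70 for IFIT2, -2.91 to -2.79 for IFIT3 and -1.91 to -1.76 for IFIT5. IFIT5 fell below a filter of at least 10 CPM on average and was not tested with it. As the members were selected on this contrast, these calls describe the processing and are no test of the genes.

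The pathway around the family was described with lists of genes, whose counts stand beside the background shares given above and whose median log2 fold changes stand beside 0.02 for all tested genes. Calls by other tools and settings have their own background, since 10% of all genes were called by DESeq2, 1.66% by limma-voom and 32.2% by edgeR without doxorubicin library 3. Counts at an unadjusted p under 0.05 have no share of all genes beside them here. Nothing is read from those counts. Of 35 other interferon-stimulated effectors, 32 were in the table and 23 passed the filter on low counts. Of these 23, 16 were higher in doxorubicin past the threshold and none in stretch, all 23 had a negative log2 fold change, and the median was -2.15. DESeq2, whose own filter tests other genes of the 32 as well, called 25, and limma-voom called 15. OASL and RSAD2, named after their values were seen, passed the filter through the doxorubicin libraries alone, so they had to differ. MX1, BST2 and IRF7, described below, reached its cut in too few stretch libraries to pass without the doxorubicin libraries, so the same caution holds. With doxorubicin library 3 alone 15 were past the threshold, with a median of -1.85. With library totals there were 6, with a median of -1.32. EIF4A2 and the share of empty rows moved with the same groups. With the EIF4A2 row left out, 18 effectors and 274 of all genes (2.42%) were past the threshold. The part of the empty rows in these counts, or of whatever raised EIF4A2, was not tested.

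ISG15, a ubiquitin-like modifier, stood at 556, 362 and 172 CPM after doxorubicin and at 5.19 to 7.08 CPM after stretch (-5.87 on the log2 scale, SE 0.45, with an edgeR adjusted p of 0.000707). MX1, an antiviral GTPase, stood at 155, 96.8 and 43.1 CPM and at 0.53 to 1.6 CPM (-6.36, SE 0.54). IFI6 stood at 628, 222 and 206 CPM and at 9.68 to 12.7 CPM, and BST2, which tethers budding virions, at 43.3, 35.5 and 26.5 CPM and at 0.32 to 1.6 CPM. With TMM scaling doxorubicin library 1 was the highest in all of these, as for the IFIT genes, and each differed by more than IFIT1 did on the log2 scale. They were named for the lowest p among the tested effectors, so large differences were chosen in. OAS1 (-0.81), ISG20 (-0.61), IFITM2 (-0.45) and SAMD9 (-0.24) missed the threshold, with overlapping groups. In DDX60 doxorubicin library 2 was the highest and in TRIM22 library 3. XAF1 and CMPK2, also named after their values were seen, had no count in any stretch library and fell below the filter.

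**Figure D4:**
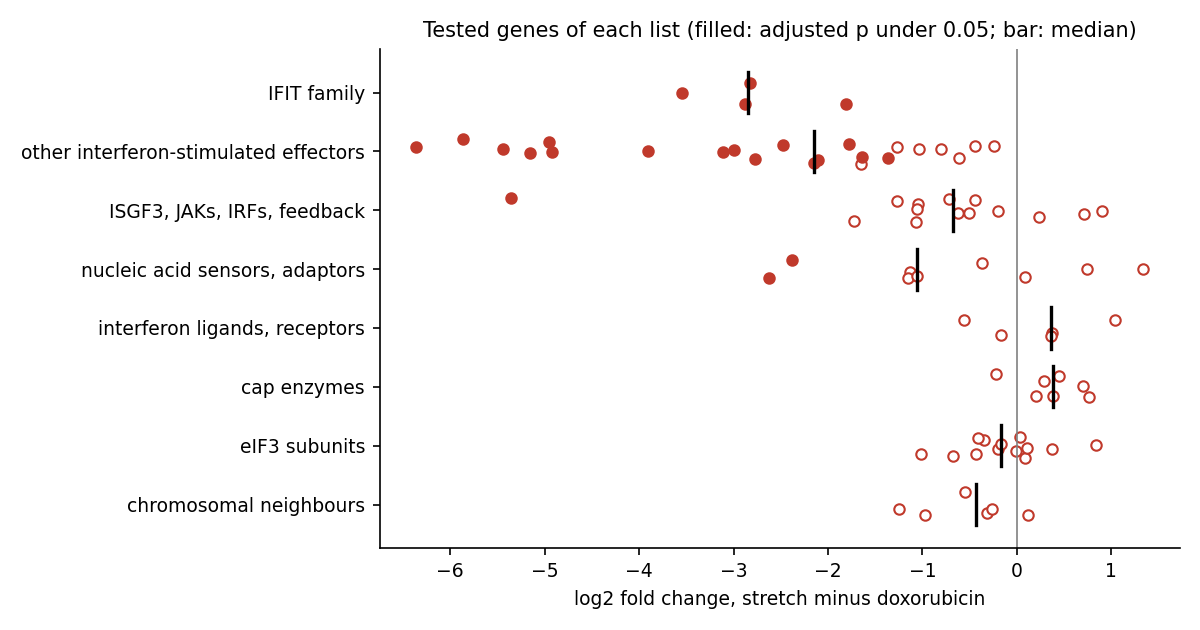
Log2 fold change (stretch minus doxorubicin) of each tested gene in the lists named at left, 1 point per gene, filled where the adjusted p was under 0.05, with the list's median as a bar. The IFIT genes and the other effectors lie left of 0, while the interferon receptors and cap enzymes lie on both sides of it.

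STAT2 and IRF9, which belong to ISGF3, had smaller log2 fold changes than the IFIT genes. STAT2 stood at 79.0, 63.1 and 43.1 CPM after doxorubicin and at 22.6 to 28.9 CPM after stretch, a difference of -1.27 on the log2 scale (SE 0.30) that missed the threshold in edgeR (adjusted p 0.0521). IRF9 stood at 38.1, 25.9 and 27.2 CPM and at 11.6 to 15.6 CPM (-1.07, SE 0.30, adjusted p 0.0741 by edgeR). The groups did not overlap for either gene. Neither passed edgeR with all libraries, and both passed DESeq2 (-1.24 and -1.05) and edgeR without doxorubicin library 3 (-1.45 and -1.13). With that library as the sole doxorubicin library their log2 fold changes were -0.74 and -0.89.

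IRF7, which amplifies interferon production, was the sole gene past the threshold by edgeR among 14 tested genes of interferon signalling, such as JAK kinases, IRF factors and feedback regulators. At an unadjusted p under 0.05 there were 8 of the 14, of which JAK1 (0.90) and PTPN6 (0.71) were higher in stretch and the rest in doxorubicin. DESeq2 called 5 and limma-voom 1, and edgeR called 6 without doxorubicin library 3. IRF7 stood at 69.1, 61.4 and 18 CPM after doxorubicin and at 0.67 to 1.51 CPM after stretch (-5.36, SE 0.53, adjusted p 0.00181 by edgeR). Too few stretch libraries reached the filter's cut for IRF7 to pass without the doxorubicin libraries, so its call is no independent support. IRF3, the factor that can drive IFIT genes directly, stood at 55.2, 116 and 106 CPM after doxorubicin and at 94.0, 57.9, 57.9 and 50 CPM after stretch, with overlapping groups (-0.51, SE 0.35). The median of the 14 was -0.67 and became 0.02 with library totals and -0.19 with doxorubicin library 3 alone.

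Ligands and receptors of interferon showed no gene past the threshold by edgeR among 5 tested, none at an unadjusted p under 0.05, none by DESeq2 and none by limma-voom. Without doxorubicin library 3, where 32.2% of all genes were called, there were 2. IFNAR2, a chain of the type I receptor, stood at 51.2, 76.1 and 42.9 CPM after doxorubicin and at 36.4 to 66.8 CPM after stretch. IFNAR1, the other chain, was below the filter at up to 2.14 CPM. IFNLR1, the type III receptor chain, stood at 33.8, 1.73 and 50.5 CPM and at 59.9 to 65.4 CPM, lower in every doxorubicin library with library 2 far below the others (1.04, SE 0.62, adjusted p 0.334 by edgeR, and 1.68 and past the threshold without doxorubicin library 3). The epithelial interferon IFNE stood at 23.0, 11.2 and 86.0 CPM and at 38.3 to 75.0 CPM, with overlapping groups. IFNGR1 and IFNGR2, the type II receptor, had log2 fold changes of -0.56 and 0.36. The level of IFNB1 was not analysed here.

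Among 9 tested nucleic acid sensors and adaptors, 2 were higher in doxorubicin past the threshold by edgeR. DESeq2 called 4 of the 12 in the table and limma-voom 2 of the 9. IFIH1, the cytoplasmic sensor of long double-stranded RNA known as MDA5, stood at 15.5, 3.46 and 12.5 CPM after doxorubicin and at 1.19 to 2.35 CPM after stretch (-2.63, SE 0.50, adjusted p 0.026 by edgeR). IFI16, a DNA sensor, stood at 54.8, 17.3 and 23.8 CPM and at 4.60 to 8.11 CPM (-2.38, SE 0.43, adjusted p 0.0235 by edgeR). Both lost the call with library totals (-2.01 and -1.66), without doxorubicin library 1 (-2.30 and -1.74) and without each of the stretch libraries, where IFIH1 ran from -2.79 to -2.47 and IFI16 from -2.54 to -2.26. MAVS, the adaptor below IFIH1, had a log2 fold change of -1.13 (SE 0.40) with overlapping groups, and TRAF3 one of -1.05 (SE 0.28). Neither passed edgeR with all libraries, both passed it without doxorubicin library 3, and TRAF3 also passed DESeq2. CGAS, listed under its older symbol MB21D1, stood lower in every doxorubicin library, at 4.77, 1.73 and 10.8 CPM against 15.1 to 18.5 CPM (1.34, SE 0.46, adjusted p 0.122 by edgeR). It passed DESeq2 at 1.38 and edgeR without doxorubicin library 3 at 2.20. STING1, listed as TMEM173, was below the filter at up to 1.18 CPM, and the level of RIGI was not analysed here.

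The enzymes that make or remove the RNA ends that IFIT proteins read were compared next. None of 7 tested cap and triphosphate enzymes passed by edgeR, none had an unadjusted p under 0.05, and none was called by DESeq2 or limma-voom, while 1 passed edgeR without doxorubicin library 3. CMTR1, which methylates the ribose that hides mRNA from IFIT1, stood at 18.3, 4.32 and 25.3 CPM after doxorubicin and at 14.7 to 37.1 CPM after stretch, with overlapping groups (0.44, SE 0.51). CMTR2, which methylates the next ribose, had a log2 fold change of 0.38 (SE 0.41). DUSP11, which trims triphosphate ends, stood at 21.4, 9.51 and 37.4 CPM and at 34.9 to 49.3 CPM (0.76, SE 0.40). The decapping enzymes NUDT16 and DCP2 had log2 fold changes of 0.70 and 0.29. The median of the 7 was 0.38.

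Translation factor eIF3, which IFIT1 and IFIT2 are known to bind, also held no gene past the threshold. None of 13 tested subunits passed by edgeR, none had an unadjusted p under 0.05 and none was called by DESeq2 or limma-voom, with a median of -0.17. EIF3G, EIF3K, EIF3J and EIF3C, the members with the lowest p, had log2 fold changes of -1.02, -0.67, 0.84 and -0.44, and all 4 changed sign with doxorubicin library 3 alone. Without that library 3 of the 13 passed, EIF3G at -1.43, EIF3K at -1.01 and EIF3J at 2.16, where 32.2% of all genes were called.

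Genes around the cluster on chromosome 10 were compared in the same way. By edgeR 0 of 6 tested neighbours passed the threshold, with 2 at an unadjusted p under 0.05. By DESeq2, which called 10% of all genes, 1 passed and by limma-voom 0, and their median was -0.44. LIPA, the lysosomal lipase whose gene spans most of the cluster on the other strand, stood at 116, 106 and 49.9 CPM after doxorubicin and at 65.9 to 83.0 CPM after stretch. Its groups overlapped, with a log2 fold change of -0.32 (SE 0.33). FAS, the death receptor, 267.91 kb upstream of the cluster, stood at 87.8, 60.5 and 41.4 CPM and at 28.4 to 37.3 CPM (-0.97, SE 0.32, adjusted p 0.111 by edgeR), without overlap.

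ACTA2, a smooth muscle actin, 292.36 kb away, had a log2 fold change of -1.25 (SE 0.51), and STAMBPL1, a deubiquitinase, 308.54 kb away, one of -0.55 (SE 0.31). On the other side PANK1, a kinase of coenzyme A synthesis, 158.5 kb away, was at 0.12 (SE 0.38). RPP30, an RNase P subunit, was at -0.26 (SE 0.40), 1450.7 kb away. SLC16A12, the nearest gene outside the cluster at 9.298 kb, and KIF20B were below the filter. Levels of IFIT1B, CH25H and HTR7 were not analysed here.

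**Figure D5:**
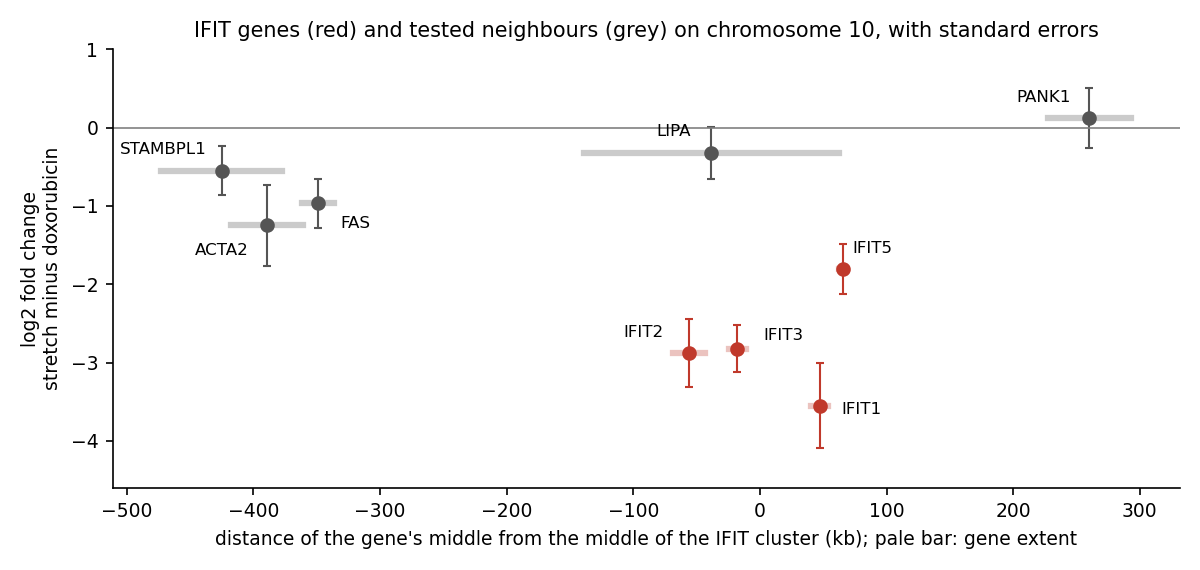
Log2 fold change (stretch minus doxorubicin) with standard error, against the distance of each gene's middle from the middle of the IFIT cluster in kb, for the IFIT genes (red) and the tested neighbours nearer than RPP30 (grey), with each gene's extent as a pale bar. The IFIT genes lie between -3.55 and -1.81, and LIPA, whose extent covers most of the cluster, lies at -0.32.

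Matches to the ISRE core were also counted around the family and across the table. The windows of LIPA (3 starts) and of IFIT1B held none, and of the 11 listed neighbours with a promoter window ACTA2 alone had one. Of 29 other effectors with a window, 20 (69.0%) held at least 1 match and 10 at least 2. Among the interferon signalling genes, 1 of 11 did, and STAT2 and IRF9 held none. Among sensors and adaptors, 1 of 10 did, IFIH1. IRF7 had no window. A match was also held by 3 of 11 interferon ligands and receptors (27.3%), 2 of 8 eIF3 subunits (25%) and 0 of 8 cap enzymes. Of 8351 tested genes with a window, 260 (3.11%) held a match. Of these 260, which include IFIT genes and effectors, 19 (7.31%) were higher in doxorubicin past the threshold by edgeR. That share was 1.97% over all tested genes. The median log2 fold change of the 260 was -0.098. The part of the motif in the difference was not tested.

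The genes whose levels followed the family most closely were named by Pearson's r between log-CPM over the 7 libraries and the mean standardised profile of the 4 IFIT genes, among 7498 genes of at least 10 CPM on average. The 7 libraries form 2 groups and share their scaling, so r reflects mainly the gap between the groups and is a description. IFITM3, which blocks virus fusion, was highest with r of 0.992, at 87.4, 34.6 and 32.5 CPM after doxorubicin and 4.81 to 8.28 CPM after stretch. It was followed by CCNE1, the cyclin of entry into DNA synthesis, and ZFAND4, both at 0.989, HERC6 at 0.988, IRF9 at 0.987 and IFI6 at 0.987. CCNE1, which is no interferon effector, stood at 20.7, 18.2 and 17.8 CPM and at 8.11 to 9.68 CPM, a log2 fold change of -1.10 (SE 0.29). ZFAND4 stood at 25.4, 22.5 and 21.0 CPM and at 6.27 to 8.67 CPM (-1.58, SE 0.30). Between pairs of IFIT genes r ran from 0.907 for IFIT1 and IFIT3 to 0.964 for IFIT3 and IFIT5.

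Cell type markers were checked against the label. All 8 epithelial markers were in the table and tested, with summed levels of 3461 to 6840 CPM after doxorubicin and 2150 to 2718 CPM after stretch. The keratin KRT18 was past the threshold, higher in doxorubicin (-2.20). The members went both ways, 5 on the doxorubicin side and 3 on the stretch side, with a median of -0.25. EPCAM, named after its values were seen, was higher in every stretch library, at 4.37, 0.865 and 4.54 CPM after doxorubicin and 10.2 to 14.6 CPM after stretch (1.79, SE 0.44, adjusted p 0.0574 by edgeR). Of 8 fibroblast markers 6 were in the table and 3 passed the filter, with summed levels of 18.7 to 45.0 and 15.5 to 16.8 CPM. Of 9 markers of leukocytes and plasmacytoid dendritic cells, 3 were in the table. CD14 and LYZ passed the filter, without a call, and IL3RA reached at most 0.40 CPM. The summed level of these 3 was 26.8 to 53.5 CPM after doxorubicin and 38.9 to 41.1 CPM after stretch, with overlapping ranges. The summed epithelial level, most of it KRT7 and KRT18, and the summed fibroblast level were higher in every doxorubicin library. The part of these cell type levels in the IFIT difference was not tested.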

How the data were processed

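The values used are estimated counts per gene, deposited by the authors as whole numbers for 7 libraries without scaling. The submitters' processing notes name fastp 0.20.1, Salmon 1.9 and the build GRCh38. Per the labels' protocols, libraries were made with an Ion AmpliSeq human transcriptome kit, in which primers amplify part of each transcript. Salmon gives fractional values, so the table is taken to be rounded. The annotation release is not given in the sources used here.

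Of 14647 rows, those of 64 symbols standing in several rows were summed and the row Metazoa_SRP, which names no gene and took at most 0.00861% of a library, was left out, leaving 14535 genes. Genes were filtered with filterByExpr (minimum count 10, about 1.77 CPM), leaving 11230. Stretch was compared with doxorubicin by edgeR 4.0.16 in R 4.3.3 (TMM factors, robust quasi-likelihood F-test, Benjamini-Hochberg adjustment over all tested genes, threshold 0.05). The fit was checked on data simulated with the TMM factors of these libraries, so that check says nothing about the scaling. The edgeR test prints no standard error, so its standard errors here are the absolute log2 fold change over the square root of the F statistic. DESeq2 1.42.0 and limma 3.58.1 (voom) served as alternatives, with other scalings and filters and with libraries left out. Standard errors for DESeq2 are those it reports. Doxorubicin library 3 alone was chosen as an alternative with earlier results known, and the overlap under each scaling and the shares without each library were added after seeing the data.

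The members, lists and alternatives were chosen with earlier results of these data known. Genes named are the 4 members, up to 4 genes per list with the lowest p, set factors, receptors, sensors, enzymes and neighbours, and 6 genes most like the family. Some genes under this rule are not reported here. Log-CPM for likeness used a prior count of 2. GENCODE release 29 gave positions and RefSeq (GRCh38.p14) promoter windows.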

Additional observations from a re-analysis of the deposited data

Results flagged for a closer look

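In 50 genes the stretch group of 4 was searched for a library standing apart, by the gap to its nearest neighbour as a share of the group's range (Dixon's ratio, against its 95% critical value for 4 libraries). Chance passes this value in about 1 in 20 groups, and 3 of the 50 passed it, none of them an IFIT gene. IRF9 had a ratio of 0.9107, with stretch library 4 low at 11.6 CPM beside 15.2 to 15.6 CPM. IFNGR2 had a ratio of 0.8681, with stretch library 4 low at 17.9 CPM beside 37.2 to 40.1 CPM. IFNLR1 had a ratio of 0.9645, with stretch library 7 high at 65.4 CPM beside 59.9 to 60.1 CPM. Stretch library 4 was also the lowest of its group for IFIT1 and IFIT2, at 2.54 and 2.67 CPM, though not apart by this measure. Without it the log2 fold changes were -3.37 for IFIT1 and -2.70 for IFIT2.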

How the results depend on the processing

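None of the 4 IFIT fold changes changed sign in the 16 alternatives, and all 4 were past the threshold in 9 of them. Their ranges were -3.93 to -2.73 for IFIT1, -3.15 to -2.09 for IFIT2, -2.96 to -2.03 for IFIT3 and -1.92 to -1.12 for IFIT5. Since the members were selected on this contrast, their calls and shared sign are no support for the difference. Leaving out 1 library at a time gave 1 to 4 members, 7 to 22 other effectors and 12 to 3736 genes past the threshold. The fewest genes came without stretch library 6 or 7 and the most without doxorubicin library 3. The most effectors came without doxorubicin library 2. Library totals alone gave 0 members, 6 effectors and 13 genes, and 2 members without overlap. A mean of at least 10 CPM gave 143 genes, DESeq2 1315 genes and 25 effectors, and doxorubicin library 3 alone 99 genes. The cause of these shifts was not tested.

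Signs changed with library totals alone for IFNGR1 (0.053), EIF3G (0.079), EIF3K (0.28), EIF3C (0.43), STAMBPL1 (0.15), LIPA (0.56), IRF3 (0.23), IFNAR2 (0.67) and RPP30 (0.58), where the median of all genes was 0.71. With doxorubicin library 3 alone they changed for IFNE (-0.67), CMTR2 (-0.29), EIF3G (0.84), EIF3K (0.60), EIF3J (-0.21), EIF3C (0.00094), ACTA2 (0.85), LIPA (0.55), IFNAR2 (0.24), CMTR1 (-0.13) and RPP30 (0.41). With 1 library left out, IFNE ran from -0.038 to 1.62, IFNAR2 from -0.35 to 0.10 and RPP30 from -0.54 to 0.11. No paired analysis was possible because the groups share no replicate number. Depth limits the IFIT values most in doxorubicin library 2, where 1 count is 0.865 CPM and the 4 genes had 124 counts.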
